A study of Rattus norvegicus with 12 samples.

Results

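The chemokines, interleukins and their receptors were read from arrays of the dorsal striatum of male rats with a lesion of the nigrostriatal dopamine pathway. The set holds 107 of the 35561 genes on the array, or 125 of its 41012 probes. A gene entered it by its name in the files alone, as Ccl, Cxcl, Ccr, Cxcr or Il followed by a digit, or as Tnf, Tnfrsf1a, Tnfrsf1b or Cx3cl1. Where a gene had several probes, the brightest on average stands for it. Of these genes, 81 were found in the RefSeq gene table of the rat, and some have a newer symbol there: Cxcl4 is Pf4, Il4ra is Il4r, Il6ra is Il6r and Cxcl7 is Ppbp. Il1rl1l is now Tmed1, which is no interleukin receptor, and is kept because its name matched.

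All 4 groups of 3 rats had been lesioned on the left side with 6-OHDA, a toxin that kills dopamine neurons, at 9 µg into the substantia nigra, and each rat was hybridised to 1 array. The 6-OHDA group received nothing further. In the HFS group an electrode in the subthalamic nucleus of the lesioned side delivered pulses of 80 µs and 60 µA at 130 Hz without pause for 5 days. The DOPA group was injected 2 times a day for 19 days with 25 mg/kg of L-DOPA and 12.5 mg/kg of benserazide, and the DOPA/HFS group received L-DOPA and, over the last 5 days, the stimulation. The methods describe electrode implantation only for the stimulated groups, so effects of the implant and of the current cannot be told apart. No unlesioned rats are among these arrays, and no comparison therefore shows what the lesion did to these genes.

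Chemokines are small secreted proteins that attract leukocytes through receptors coupled to G proteins. Interleukins and tumour necrosis factor act on receptors that signal through JAK kinases and STAT factors or through NF-kB. In brain, a few members are made by neurons, glia and vessel cells without inflammation, such as Cx3cl1, a neuronal ligand for the microglial receptor Cx3cr1, and Cxcl12, which acts on Cxcr4. Many others are induced when microglia, endothelium or infiltrating leukocytes respond to injury.

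Upstream sequence is known for 80 of the genes, in the 250 bases before the start site (RefSeq, GRCr8). A pair is shown because their windows carry different motifs and their genes showed different patterns on the arrays, with Cxcl12 above background on every array and Cxcl10 on some arrays of each group. Cxcl12 lies at chr4:152060531-152060780 on the plus strand and Cxcl10 at chr14:15988816-15989065 on the plus strand. Capitals mark matches, on either strand, to GGGCGG (the GC box), TATAAA, the core of interferon response elements and the NF-kB consensus.
Cxcl12: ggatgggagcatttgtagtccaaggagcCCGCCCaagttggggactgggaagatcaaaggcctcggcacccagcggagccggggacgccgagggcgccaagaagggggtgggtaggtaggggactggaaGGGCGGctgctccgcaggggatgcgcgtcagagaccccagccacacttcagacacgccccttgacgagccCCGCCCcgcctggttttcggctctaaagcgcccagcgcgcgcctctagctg
Cxcl10: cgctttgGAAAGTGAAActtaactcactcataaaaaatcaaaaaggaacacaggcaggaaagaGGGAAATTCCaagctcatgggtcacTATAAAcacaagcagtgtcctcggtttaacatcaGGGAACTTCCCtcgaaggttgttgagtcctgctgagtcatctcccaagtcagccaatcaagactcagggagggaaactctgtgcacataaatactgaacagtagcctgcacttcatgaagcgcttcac
In Cxcl12 all 3 matches are GC boxes. Cxcl10 has 1 match to the interferon response core, 1 to TATAAA and 3 to the NF-kB consensus, of which a pair overlap on opposite strands. The NF-kB consensus was found upstream of 17.5% of the 80 genes, against 6.33% of all 33469 promoters of the table. Among genes that were above background on 0 arrays it was found in 11 of 38 (28.9%), and among those above background on all 12 arrays in 2 of 21 (9.52%), with 1 of 21 (4.76%) between them, so that the share did not follow detection in order. In the same order of 0, 1 to 11 and 12 arrays, the shares were 28.9%, 28.6% and 57.1% for GGGCGG, with 30.5% of all promoters, 21.1%, 42.9% and 14.3% for TATAAA, and 5.26%, 4.76% and 14.3% for the interferon response core. Over all detection classes, TATAAA was found in 25% of the 80 genes and in 12.9% of all promoters, and the interferon response core in 7.5% and 3.41%. A match is a string of letters and not a binding site.

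Most of these genes were near or below the limit of detection in the lesioned striatum. The brightest probe was well above background on all 12 arrays for 24 of the 107 genes (22.4%), against 42% of all genes on the array. It was so on 5 to 11 arrays for 13 genes (15.3% of all genes), on 1 to 4 arrays for 17 (11.3% of all genes) and on 0 arrays for 53 (49.5%), where the share over all genes was 31.4%. Receptors and ligands differed little in this respect, with 12 of 49 receptors, 7 of 29 chemokines and 5 of 29 other genes above background on all arrays. What is not above background is not shown to be absent, since each probe has its own sensitivity.

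**Figure D1:**
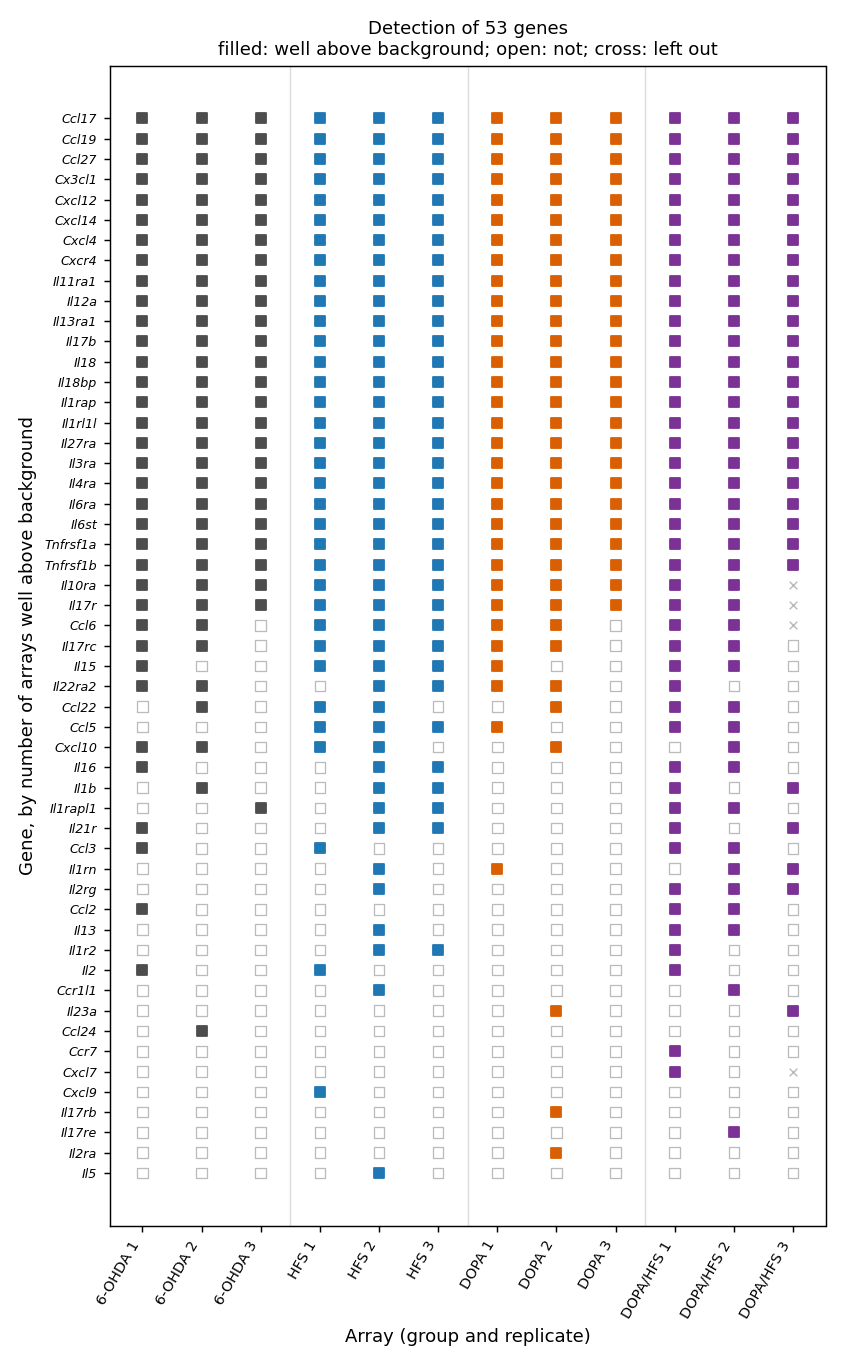
Detection of 53 genes that were well above background on at least 1 array. Each row is a gene and each column an array, with filled squares for a signal well above background, open squares for one that was not and crosses for a spot left out. The 23 genes at the top were detected on all 12 arrays, and the genes from Ccl6 downwards were detected on 9 arrays or fewer, spread over the groups.

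Several inflammatory mediators were above background on 0 arrays: Tnf, Il6, Il1a and Il10, the neutrophil chemokine Cxcl1, Ccl4, and the leukocyte receptors Ccr1, Ccr2 and Cxcr3. Il1r1, the signalling receptor for interleukin-1, was likewise below background on every array, whereas its coreceptor Il1rap was above it on all 12. Ccl2 and Ccl3, which attract monocytes, passed on 3 and 4 arrays, and Il1rn, the natural antagonist of interleukin-1, on 4. Ccl3 was 6.18, 5.17 and 4.49 on 6-OHDA, 3.7, 2.8 and 2.85 on DOPA and 6.01, 5.11 and 4.93 on DOPA/HFS. Ccl2 was 5.39, 5.01 and 4.38 on 6-OHDA, 4.3, 3.92 and 3.05 on DOPA and 5.49, 4.86 and 4.58 on DOPA/HFS. For both chemokines, every DOPA array lay below all arrays of these groups, and HFS overlapped with each group. Above background were 1 array of 6-OHDA, 0 of HFS, 0 of DOPA and 2 of DOPA/HFS for Ccl2, and 1, 1, 0 and 2 for Ccl3. Il1rn was 4.11, 3.35 and 2.83 on 6-OHDA, 5.29, 3.89 and 5.12 on DOPA and 4.27, 4.82 and 5.83 on DOPA/HFS, which lay above 6-OHDA. Its second probe was above background on 0 arrays. These genes were too dim to test, most of the signals were not above background, and no share over all genes was computed for such separations.

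The number of these genes above background moved with the detection of all genes on the same array. It was 36, 33 and 27 on the 6-OHDA arrays, 35, 43 and 36 on HFS, 32, 34 and 26 on DOPA and 44, 41 and 29 on DOPA/HFS. The arrays with the lowest counts, DOPA replicate 3 and 6-OHDA replicate 3, also had the lowest share of all genes above background, 47.8% and 50.9%, and the range on the other arrays was 53.3% to 60.4%. The groups overlapped in number, and no difference between them in the count of detected genes is given. On DOPA/HFS replicate 3 the scanner software marked 4175 spots as outliers, against 2 to 25 on the others, and only 99 of the 107 genes had a detection call there.

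**Figure D2:**
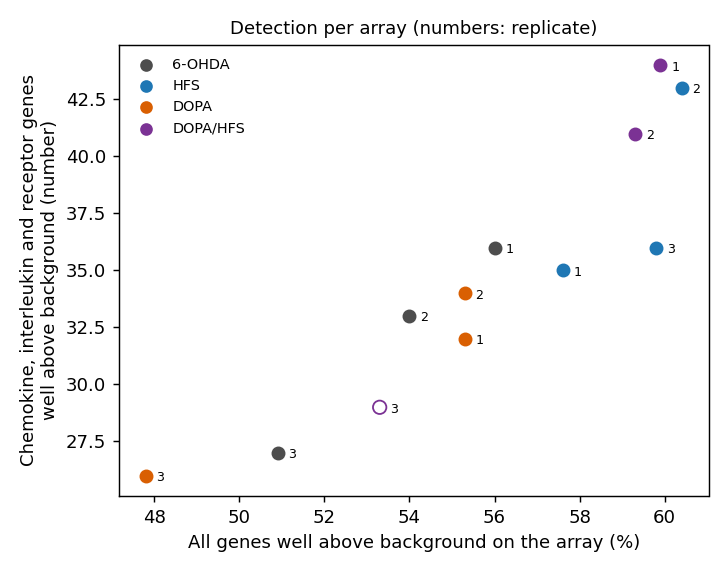
Number of chemokine, interleukin and receptor genes well above background on each array, against the percentage of all genes well above background on it. Colours are groups, numbers are replicates, and the open circle is DOPA/HFS replicate 3, where 99 of 107 genes had a call. The 26 genes of DOPA replicate 3 lie at the lowest percentage, 47.8%, and the 43 genes of HFS replicate 2 at the highest, 60.4%.

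Marker genes described the tissue. Those of striatal projection neurons summed to a log2 signal of 17.79 to 18.31 on every array, those of microglia to 15.55 to 15.84 and those of astrocytes to 15.67 to 15.96, and oligodendrocyte genes to 17.45 to 17.7. Lymphocyte genes were mostly not detected: of the T cell markers 3 of 6 were above background on 0 arrays and only Cd3d on all 12, and the B cell markers Cd79b and Ms4a1 were on 0 arrays. Choroid plexus genes summed to 16.46, 12.16 and 15.47 on the HFS arrays and to 14.05 on DOPA replicate 3, against 8.52 to 10.71 elsewhere. The leptomeninges gave 11.94 to 13.66, the ependyma 10.99 to 13.1 and the only measured gene of cortical projection neurons 4.35 to 7.76. In such tissue, fewer cells of a type and less RNA per cell cannot be told apart.

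Of the 107 genes, 37 were well above background on at least 5 of the 12 arrays and were tested, among 20376 genes in all. The tests ask whether stimulation, L-DOPA or both altered their level in the lesioned striatum. To be called, a gene needed a fold over 1.2 or under 0.8 and, in limma, an adjusted p under 0.1 (Benjamini-Hochberg, over all genes tested). By this rule 0 of the 37 were called in HFS vs 6-OHDA, where 0% of all genes were called, 0 in DOPA vs 6-OHDA (0.00491% of all genes) and 0 in DOPA/HFS vs 6-OHDA (0%). DOPA/HFS vs DOPA (0%), the L-DOPA main effect over 6 arrays against 6 (0.00491%), the HFS main effect (0%) and the interaction of both treatments (0%) likewise gave 0 calls. At an unadjusted p under 0.05 in limma there was 1 of the 37 in HFS (2.35% of all genes), 2 in DOPA (2.6%), 0 in DOPA/HFS (2.76%) and 2 in DOPA/HFS vs DOPA (3.79%). The main effects gave 0 for L-DOPA (2.74%) and 2 for HFS (4.35%), and the interaction gave 2 (1.98%). An F test over the 4 groups gave 2 of the 37, Cxcl4 and Cxcl12, at an unadjusted p under 0.05 (2.82% of all genes) and 0 after adjustment. These counts are of 1 or 2 genes and are near the background of all genes.

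**Figure D3:**
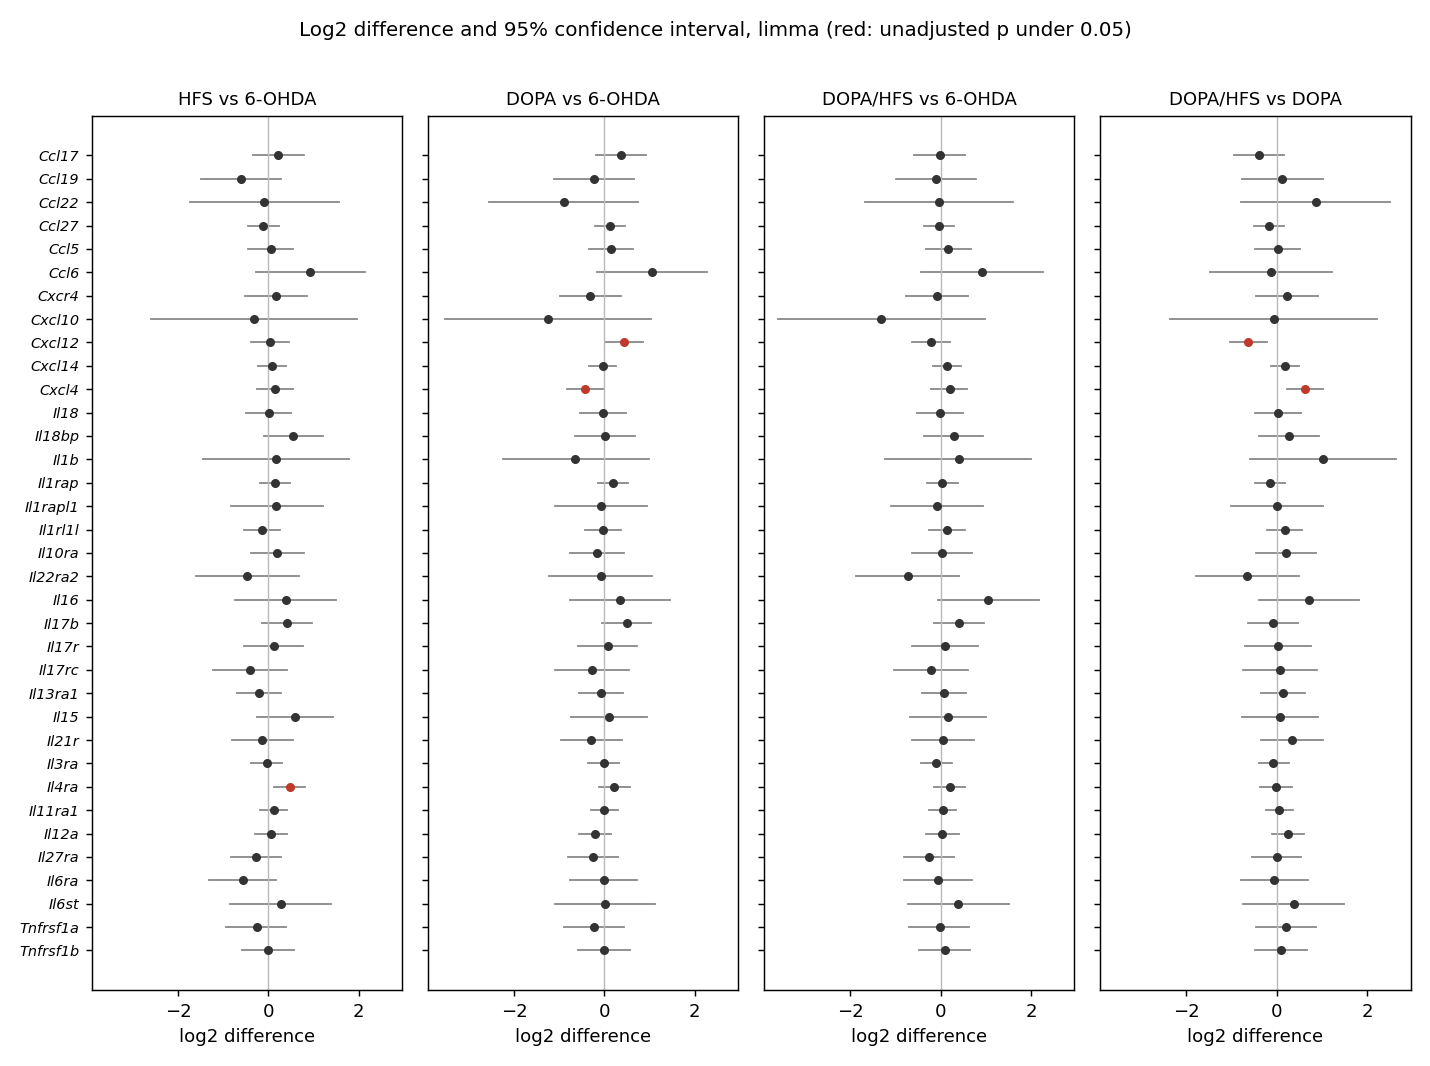
Log2 difference of tested genes in 4 comparisons, with the 95% confidence interval of the limma fit over all 12 arrays, for 35 genes whose probe was not saturated. Red points have an unadjusted p under 0.05, which are Il4ra in HFS vs 6-OHDA, and Cxcl4 and Cxcl12 in DOPA vs 6-OHDA and in DOPA/HFS vs DOPA. Genes such as Cxcl14 and Il11ra1 have narrow intervals around 0, and Cxcl10 has the widest.

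The set as a whole stayed near 0. The 37 tested genes, and the 24 detected on all arrays, include Cx3cl1, whose probe was saturated on all 12 arrays. Il1rl1l, now Tmed1, is also among them. The median log2 difference of the 37 genes in the comparisons of HFS, DOPA and DOPA/HFS with 6-OHDA was 0.06, -0.03 and 0.04, against 0.01, -0.01 and -0.01 over all genes, and 0.07 against -0.01 in DOPA/HFS vs DOPA. For the 24 genes detected on all arrays the residual SD had a median of 0.28, against 0.24 for the 14936 such genes of the whole array, and the 95% interval of a difference reached a median of 0.51 on either side. Smaller differences could mostly not be told from 0 with 3 arrays a group. The width of 0.51 was taken with 8 degrees of freedom and is wider than the limma intervals given elsewhere.

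Among the tested ligands, Cxcl12, a chemokine that binds Cxcr4, was the one whose groups separated most often. Its log2 signal was 12.09, 11.76 and 11.55 on the 6-OHDA arrays, 11.84, 11.53 and 12.13 on HFS, 12.2, 12.38 and 12.1 on DOPA and 11.44, 11.69 and 11.67 on DOPA/HFS. Every DOPA array lay above every DOPA/HFS array and, by a narrow margin at 12.1 against 12.09, above every 6-OHDA array, while HFS overlapped with both 6-OHDA and DOPA. The difference was 0.43 in DOPA vs 6-OHDA (standard error 0.19, unadjusted p = 0.0455, adjusted p = 1 in limma) and -0.63 in DOPA/HFS vs DOPA (standard error 0.19, unadjusted p = 0.0071, adjusted p = 1). Each slide held 1 array of every group, and on all 3 the DOPA/HFS array was below the DOPA array, with differences of -0.76, -0.69 and -0.43. The interaction was -0.66 (95% interval -1.25 to -0.07, unadjusted p = 0.0316, adjusted p = 1 in limma).

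The separation of Cxcl12 was not seen with its second probe, designed on another RefSeq transcript. This probe gave 11.13, 10.69 and 9.87 on 6-OHDA, 10.32, 10.56 and 10.26 on HFS, 10.41, 10.67 and 11.11 on DOPA and 9.28, 10.68 and 10.45 on DOPA/HFS. The DOPA arrays overlapped with both other groups. By limma it gave 0.16 in DOPA vs 6-OHDA and -0.59 in DOPA/HFS vs DOPA, each with a standard error of 0.38 and an adjusted p of 1. Of 8 endothelial marker genes, 3 were above background on all arrays. The sum over the 6 with a value on every array, which is almost that of Cldn5 alone, was 13.06, 13.25 and 13 on the DOPA arrays, 12.73, 12.84 and 12.88 on DOPA/HFS and 12.81 to 12.85 on 6-OHDA. Kdr, at 12.04, 12.47 and 11.99 on DOPA against 12.35, 12.54 and 11.9 on 6-OHDA, and Vwf, at 10.18, 9.4 and 9.73 against 9.65, 10.14 and 9.8, overlapped between these groups. Their part in the Cxcl12 signal was not tested.

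The receptor Cxcr4 did not show the pattern of its ligand. Its signal was 6.9, 8.1 and 7.43 on 6-OHDA, 8.04, 7.33 and 7.56 on HFS, 7.39, 7.12 and 6.98 on DOPA and 7.83, 7.3 and 7.05 on DOPA/HFS. All groups overlapped, and the differences from 6-OHDA were between -0.31 and 0.17 with a standard error of 0.31. The other receptor of Cxcl12, named Cmkor1 in the files, was above background on all 12 arrays.

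Cxcl4 is the chemokine known as platelet factor 4, stored in platelets and also made by some macrophages. Its log2 signal was 6.6, 6.2 and 6.43 on the 6-OHDA arrays, 6.67, 6.59 and 6.42 on HFS, 5.83, 5.78 and 6.36 on DOPA and 6.71, 6.49 and 6.63 on DOPA/HFS. The DOPA arrays were below all DOPA/HFS arrays, and DOPA replicate 3 lay within the 6-OHDA range. The difference was 0.62 in DOPA/HFS vs DOPA (standard error 0.18, unadjusted p = 0.00577, adjusted p = 1 in limma) and -0.42 in DOPA vs 6-OHDA (standard error 0.18, unadjusted p = 0.0401, adjusted p = 1). Over the 6 stimulated against the 6 unstimulated arrays it was 0.38 (exact permutation within L-DOPA strata, two-sided, p = 0.03, where 0.005 is the smallest possible, and adjusted p = 0.911 in limma). This value was 0.16 to 0.48 over the alternatives run. Stimulation without L-DOPA gave 0.15 in HFS vs 6-OHDA (95% interval -0.25 to 0.55, adjusted p = 0.998 in limma), with overlapping arrays. Genes of neutrophils and monocytes, whose sum is almost that of Lyz alone, summed to 10.47, 10.65 and 11.12 on the DOPA arrays and 11.07, 11.16 and 10.96 on DOPA/HFS. On 6-OHDA they summed to 10.69, 10.52 and 10.84 and on HFS to 11.1, 10.75 and 10.95. Lyz was higher at an unadjusted p under 0.05 in limma in the HFS main effect (4.35% of all genes) and in DOPA/HFS vs 6-OHDA (2.76%). It was not called in either. Mrc1 was 6.41, 5.78 and 6.92 on DOPA and 5.94, 6.97 and 7.42 on DOPA/HFS, which overlapped. It was 7.25, 6.93 and 6.57 on 6-OHDA and 6.47, 6.32 and 5.9 on HFS. Of these 5 markers, Lyz and Mrc1 were above background on all arrays and Cd163 on 0, and their part was not tested.

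By the rule that groups may not overlap and must pass the fold limits, DOPA vs 6-OHDA had 1 of the 37 genes, Cxcl12 (3.88% of all genes), and DOPA/HFS vs DOPA had Cxcl12 and Cxcl4, 2 of the 34 with 3 values in both groups (6.2%). DOPA/HFS vs 6-OHDA had 0 of 34 (2.79%). HFS vs 6-OHDA had 2 of the 37, Il4ra and Il17b (3.2%). With 3 arrays against 3, the smallest p of an exact two-sided permutation test is 0.1. Any gene whose groups do not overlap has this p by construction, so it adds nothing to the rule.

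**Figure D4:**
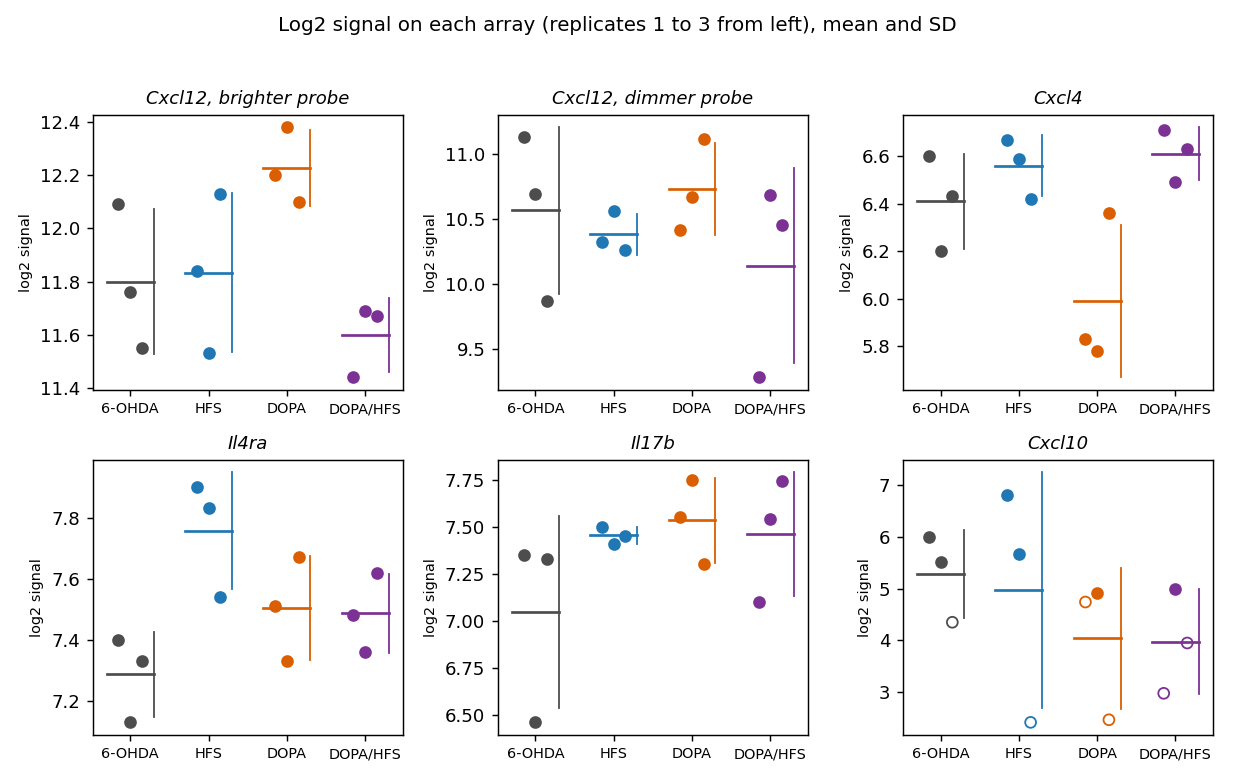
Log2 signal of 5 genes on each array, with the group mean as a horizontal line and the SD as a vertical line, on axes that differ between panels and do not start at 0. Open circles are not well above background. The DOPA arrays stand above the DOPA/HFS arrays for the brighter probe of Cxcl12 and not for the dimmer, Cxcl4 is lowest on DOPA replicates 1 and 2, and Cxcl10 spreads from 2.42 to 6.8 within HFS alone.

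Il4ra, the receptor subunit shared by interleukins 4 and 13, was 7.4, 7.13 and 7.33 on the 6-OHDA arrays and 7.9, 7.83 and 7.54 on HFS. It was 7.51, 7.33 and 7.67 on DOPA and 7.48, 7.36 and 7.62 on DOPA/HFS. All HFS arrays were above all 6-OHDA arrays, and both L-DOPA groups overlapped with HFS and with 6-OHDA. The HFS difference was 0.47 (standard error 0.16, unadjusted p = 0.0118, adjusted p = 0.998 in limma), a fold of 1.38, and on the 3 slides it was 0.5, 0.7 and 0.21. The interaction of -0.49 had an unadjusted p of 0.0493 and an adjusted p of 1 in limma. The summed choroid plexus signal of the same HFS arrays was 16.46, 12.16 and 15.47, against 8.92 to 9.12 on 6-OHDA, with 8 of 8 markers at an unadjusted p under 0.05 and 0 called in limma. Its part in Il4ra was not tested. Il13ra1, which pairs with Il4ra, was between 7.48 and 8.32 over all arrays, with overlapping groups.

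Il17b, a ligand of the interleukin-17 family, was 7.35, 6.46 and 7.33 on 6-OHDA, 7.5, 7.41 and 7.45 on HFS, 7.55, 7.75 and 7.3 on DOPA and 7.1, 7.54 and 7.74 on DOPA/HFS. The HFS arrays were above 6-OHDA by a narrow margin, and 6-OHDA replicate 2 stood apart below all other arrays. In HFS it differed by 0.41, with a standard error of 0.25 and an adjusted p of 0.998 by limma. Leaving out 6-OHDA replicate 2 brought this to 0.12. With the normexp background correction or the deposited log2 table, 0 genes of the set passed the same rule in HFS.

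Other bright ligands were above background on all 12 arrays. Cx3cl1, the neuronal chemokine read by Cx3cr1 on microglia, saturated its brighter probe on all 12 arrays, so that no difference can be given from it. The second probe, which was not saturated, was 12.92, 12.56 and 13.36 on 6-OHDA, 12.8, 12.75 and 13.37 on HFS, 13.07, 12.91 and 12.67 on DOPA and 13.3, 12.48 and 12.34 on DOPA/HFS. All groups overlapped, and the differences from 6-OHDA were 0.03, -0.06 and -0.24 with a standard error of 0.29. Cx3cr1 itself was 7.33 to 8.16 over all arrays. Cxcl14 was 12.54 to 13.03, and its difference in HFS, 0.09, had a 95% interval from -0.22 to 0.4. Ccl27 was 12.31 to 12.76, and its HFS, DOPA and DOPA/HFS groups differed from 6-OHDA by -0.11, 0.13 and -0.03.

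Among chemokines with weaker probes, Ccl17, a ligand of Ccr4, had signals of 7.17 to 8.05, and Ccl19, a ligand of Ccr7, of 7.62 to 9.34. Ccl17 differed by 0.37 in DOPA and Ccl19 by -0.61 in HFS, with standard errors of 0.25 and 0.4 and overlapping groups. The former was 0.22 without DOPA replicate 2, 0.56 without 6-OHDA replicate 2 and 0.61 without DOPA replicate 3. Ccl6 was 5.34, 6.49 and 5.29 on 6-OHDA, 5.84, 7.19 and 6.87 on HFS, 6.55, 7.89 and 5.82 on DOPA and 6.41 and 6.84 on the DOPA/HFS arrays that gave a value. Its differences from 6-OHDA were positive in the 3 treated groups, at 0.92, 1.05 and 0.92, with standard errors of 0.54, 0.54 and 0.61 and shared controls, and its arrays overlapped in each. Leaving out 1 array changed the DOPA value to as little as 0.48 (without DOPA replicate 2). Ccl5 and Ccl22 were above background on 6 arrays each, Ccl5 on 3 HFS arrays and on 0 of 6-OHDA, although its signals of 4.33 to 4.78 and 4.23 to 4.97 overlapped.

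Cxcl10, a chemokine induced by interferon, had the largest residual SD of the set, 1.48. It was 6, 5.51 and 4.35 on 6-OHDA, 6.8, 5.67 and 2.42 on HFS, 4.74, 4.91 and 2.47 on DOPA and 2.98, 5 and 3.95 on DOPA/HFS. It was detected on 6 arrays, at least 1 in each group, and the arrays of a group differed more than the groups did. The DOPA/HFS difference of -1.31 had a standard error of 1.04 (unadjusted p = 0.233, adjusted p = 1 in limma) and ran from -1.82 to -0.32 over the alternatives, with 1 of the 3 DOPA/HFS arrays above background. It was -0.81 without DOPA/HFS replicate 1. The HFS array where Cxcl10 was highest, replicate 1, was also the only one with Cxcl9 above background, at 7.53, against 2.47 to 3.38 on the others. These 2 neighbours on chromosome 14 share the receptor Cxcr3, which was on 0 arrays.

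Of the interleukin ligands, Il18 was 7.04 to 7.71 and its difference was between -0.03 and 0.01 in the treatments, with a standard error of 0.23. Il18bp, a secreted protein that binds and blocks Il18, was 6.1, 6.22 and 6.72 on 6-OHDA and 7.39, 6.74 and 6.56 on HFS, which overlapped (difference 0.55, standard error 0.3, adjusted p = 0.998 in limma). Without HFS replicate 1 the difference was 0.31. Il12a was 6.76 to 7.42, and all its DOPA/HFS arrays (7.13, 7.21 and 7.07) were above its DOPA arrays (7.03, 6.76 and 6.86), a difference of 0.25, a fold of 1.19 and so within the fold limits. Il1b was above background on 5 arrays with its brighter probe, on which its groups overlapped, and on 0 with the other. On that dimmer probe it was 2.71, 2.71 and 2.72 on 6-OHDA and 2.7, 2.64 and 3.14 on DOPA. The values of 3.25, 3.86 and 2.98 on HFS and 3.47, 3 and 4.41 on DOPA/HFS lay above those of 6-OHDA, all below background. Il16 was 5.19, 3.03 and 4.45 on 6-OHDA, 4.3, 4.79 and 4.73 on HFS, 4.49, 4.74 and 4.5 on DOPA and 5.08, 6.21 and 4.57 on DOPA/HFS. It was well above background on 1 array of 6-OHDA, 2 of HFS, 0 of DOPA and 2 of DOPA/HFS (not replicate 3), and all groups overlapped. The difference of 0.71 in DOPA/HFS vs DOPA was 0.25 without DOPA/HFS replicate 2 and 1.07 without DOPA/HFS replicate 3. Its difference of 1.06 in DOPA/HFS vs 6-OHDA was 0.47 without 6-OHDA replicate 2 and 0.6 without DOPA/HFS replicate 2.

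Receptors of the interleukin-6 family and of TNF were among those detected on all arrays. Il6st, the chain shared by receptors of the interleukin-6 family, ranged from 7.06 to 9.35 with a residual SD of 0.71, and Il6ra, the receptor for interleukin-6, was 9, 8.51 and 8.64 on 6-OHDA against 8.91, 7.45 and 8.06 on HFS. The difference of Il6ra was -0.57 (standard error 0.34, adjusted p = 0.998 in limma) with HFS replicate 1 inside the 6-OHDA range. It was -0.23 without HFS replicate 2 and -0.96 without HFS replicate 1. Il11ra1 was 11.4 to 11.82 and differed by at most 0.12. The TNF receptor Tnfrsf1a was 10.93, 11.28 and 10.41 on 6-OHDA, 10.79, 10.78 and 10.27 on HFS, 10.67, 10.84 and 10.41 on DOPA and 10.3, 10.81 and 11.44 on DOPA/HFS, and Tnfrsf1b was 6.52 to 7.39. Neither separated any groups. Il1rap was 7.83 to 8.34, Il3ra 7.87 to 8.4 and Il27ra 6.5 to 7.49.

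Some of the genes too dim to test were above background on 1 array or on a few. Ccl24 was 6.32 on 6-OHDA replicate 2 and 2.47 to 2.57 on the others, and Il2ra was 6.2 on DOPA replicate 2 and 2.73 to 4.46 on the others. Il2rg, the chain shared by receptors for interleukin-2 and its relatives, was 5.92, 4.78 and 6.76 on DOPA/HFS, all above background, 4.81 and above background on HFS replicate 2, and not above background on the other 8 arrays. Its signals overlapped all the same, since 6-OHDA replicate 2 (5.09) and DOPA replicate 2 (5.06) exceeded DOPA/HFS replicate 2. A bound on the fold of group means was 1.75 for DOPA/HFS over 6-OHDA and 1.57 over DOPA. It does not allow for the spread between arrays. When all genes were tested without a filter, the adjusted p of Il2rg was 1 and 0.915 in limma. The lowest signal counted as well above background differed between arrays, at 4.22 on DOPA/HFS replicate 2 and 5.12 on 6-OHDA replicate 2. For such a bound, the dimmer group was given on each array the lowest signal that counts as well above background, or its own signal where higher. These genes were picked after their values had been seen, and have a single probe or, for Il2ra, a second one below background.

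Genes that carry these signals were examined as lists. Of 4 tested genes of other chemokine receptors and ligands, 18 of other cytokines and their receptors, 21 of NF-kB and death domain signalling and 16 of JAK and STAT signalling, 0 were called in any of the 7 contrasts. The medians of the log2 differences from 6-OHDA ran from -0.12 to 0.05 over these lists. At an unadjusted p under 0.05 in limma there were 2 of these genes in HFS (2.35% of all genes), Ccrl2, a chemerin-binding receptor, at -0.58 and Tradd, an adaptor of TNF receptors, at -0.42 (adjusted p = 0.998 each). DOPA had 2 (2.6%), Socs1, which inhibits JAK kinases, at -0.79 and Ikbkg, the regulatory subunit of the IkB kinase, at -0.62 (adjusted p = 1 each), and DOPA/HFS vs 6-OHDA had 0 (2.76%). DOPA/HFS vs DOPA had 3 (3.79%), Socs1 at 0.67, Ikbkg at 0.55 and Nfkb2 at 0.64 (adjusted p = 1 each in limma). These comparisons share the DOPA arrays. The L-DOPA main effect had Socs1 at -0.4 and Nfkbia at -0.27 (adjusted p = 1 each in limma), the HFS main effect Cntf at -0.4, Ltb at -0.25 and Ltbr at 0.24 (adjusted p = 0.911 each), and the interaction Socs1 at 0.77 and Ikbkg at 0.88 (adjusted p = 1 each).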

How the data were processed

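Rat whole-genome arrays of 1 colour were scanned and read by the authors with Agilent Feature Extraction 9.1 (submitters' processing notes). The deposited scanner files give processed signal intensity for each spot, corrected for background, and a deposited table gives the authors' log2 values, used here as an alternative only. Taking control spots and outlier-marked spots out, the intensities were log2 transformed, quantile normalised as in the study's methods, and averaged per probe. The probe of highest mean signal stood for a gene, and genes well above background on at least 40 percent of the 12 arrays were kept.

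Groups came from the sample labels. Moderated linear models (limma 3.58.1, R 4.3.3) over all 12 arrays gave the contrasts, with Benjamini-Hochberg adjustment over all genes tested, and the code was tested on simulated data. Exact permutation tests were two-sided. The study's own significance analysis of microarrays was not run. The members, lists and tests were chosen with earlier results of these data known. Genes named were those with the smallest p in a comparison, those whose groups did not overlap, the 15 of highest signal, and a list by role. Others were picked after their values were seen. A member and a marker gene are counted but not reported here by name.

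Alternatives covered scaling, background correction, the deposited log2 table, filters, probe choice, outlier spots, the slide as a block, thresholds, the arrays in the fit and leaving out each array. A second probe, and leaving out HFS replicates 1 and 3, were added after seeing the data. The small number of arrays limits the precision. Replicate numbers mark the slide, and the position on the slide goes with the group, so these cannot be told apart. The arrays of 1 number did not deviate together throughout, with correlations of -0.288 to 0.477 and a median of 0.112 over 18 pairs. The 36 pairs of different number had -0.447 to 0.542 and a median of -0.0693. The fit reported above does not include the slide.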

Additional observations from a re-analysis of the deposited data

How the results depend on the processing

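The count of 0 called genes held under every alternative run, the replicate block included. In the fit reported above, the rule called at most 1 of the 20376 genes tested in any contrast. With the replicate block, the genes at an unadjusted p under 0.05 in limma numbered 2 in HFS, 3 in DOPA, 0 in DOPA/HFS, 3 in DOPA/HFS vs DOPA, 0 and 1 for the L-DOPA and HFS main effects and 3 for the interaction. The share over all genes was not computed with this block, so these counts have no background to be set against. The medians over the tested genes were small and changed sign. With the deposited log2 table they were -0.08 in DOPA/HFS, -0.04 in DOPA/HFS vs DOPA, 0.01 for the HFS main effect and -0.05 for the interaction. With outlier spots kept they were -0.13, -0.07, 0.02 and -0.07. The median of all genes was itself -0.12 and -0.11 (deposited table) and -0.14 and -0.13 (outlier spots kept) in DOPA/HFS vs 6-OHDA and vs DOPA. Without a filter, medians were -0.03 in HFS, -0.01 in DOPA/HFS vs DOPA and -0.01 for the HFS main effect. Leaving out 1 array gave medians of -0.01 to 0.12 in HFS, -0.11 to 0.03 in DOPA, 0.02 to 0.09 in DOPA/HFS, 0.04 to 0.1 in DOPA/HFS vs DOPA, 0.03 to 0.11 and -0.03 to 0.01 for the HFS and L-DOPA main effects and 0.02 to 0.12 for the interaction. Genes whose groups did not overlap numbered 0 in HFS with normexp or the deposited table. In DOPA they numbered 2 with percentile scaling, 4 without a filter and 0 with the mean of a gene's probes. In DOPA/HFS there was 1 without a filter, and in DOPA/HFS vs DOPA 1 with the deposited table, 6 without a filter and 1 with outlier spots kept. Leaving out 1 array gave 2 to 8, 1 to 5, 0 to 4 and 2 to 6 in these 4 comparisons. Groups separate more easily with fewer arrays, and without a filter the set was all 107 genes. The share over all genes was not computed for these counts, so they are not read as a result about these genes. Il12a in DOPA/HFS vs DOPA turned to -0.04 with the deposited table. Cxcl12 in that comparison stayed between -0.77 and -0.55 and Cxcl4 between 0.2 and 0.8, with adjusted p of 0.737 to 1 and 0.647 to 1 in limma. The causes were not tested.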
